A study of Mus musculus with 12 samples.

Results

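Cholesterol and long-chain fatty acids are built from acetyl-CoA by enzymes whose genes are largely switched on together, and 30 genes of that system are described here across 12 libraries of mouse mammary tumour organoids. The genes were taken by symbol from a table of 25861 genes. They comprise 5 genes at the entry to the mevalonate pathway, 3 that make isoprenoid units, 11 that carry squalene to cholesterol, 4 that regulate or sense the process, 1 sterol carrier and 6 that make and desaturate fatty acids. All 30 passed the filter on low counts that left 17025 genes to be tested, with 433 to 163195 reads per gene and library.

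The tumours were those of MMTV-Neu mice, which carry the Neu (Erbb2) oncogene under a viral promoter that is active in mammary epithelium. They were infected by lentivirus with a short hairpin RNA at a multiplicity of infection of 20. Those called hairpin 1 carried sh1Cldn7 and those called hairpin 2 carried sh2Cldn7, both directed against the tight-junction gene Cldn7, and the controls (shControl) carried a non-targeting hairpin. Every group had puromycin selection for 3 days at 3 µg/ml, medium with 2.5 nM FGF2, and 5 days in collagen I before RNA was taken. There were 4 libraries in each group, numbered 1 to 4 in the labels. Nothing in the labels ties a number to an animal or a culture of its own, so the p-values rest on a spread between samples that may be technical. Organoids of tumour tissue hold whatever cells were carried along with the epithelium, and in such bulk RNA fewer cells of a type and less RNA per cell cannot be told apart.

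Cells make cholesterol when they sense too little of it. The protein SCAP then escorts the transcription factors SREBP-1 and SREBP-2, encoded by Srebf1 and Srebf2, out of the endoplasmic reticulum to be cut and released, while INSIG-1 holds SCAP back when sterol is plentiful. The released factors bind sterol regulatory elements near the genes of cholesterol synthesis (mainly SREBP-2) and of fatty acid synthesis (mainly SREBP-1c). Insig1 is itself among their targets, which closes a feedback loop. In mammary epithelium the same enzymes supply membrane lipid and, in lactation, milk fat.

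The knockdown was present in each library. Cldn7 had 31.1, 30.0, 44.2 and 29.0 CPM (counts scaled to the size of the library) with hairpin 1 and 27.4, 25.4, 34.7 and 26.1 CPM with hairpin 2, against 144.0, 136.4, 185.7 and 101.3 CPM in the controls. Over both hairpins it fell by 2.18 on the log2 scale (SE 0.07, edgeR adjusted p = 1.63e-07). Total counts were 34988358 to 44645514 in the libraries numbered 1 and 2, and 68581024 to 76329473 in those numbered 3 and 4 of every group. Libraries of different groups deviated from their group means together where they shared a number, so each hairpin library was compared with the control of its own number and the number was kept in the model.

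The promoters were searched for fixed motifs, among them the sterol regulatory motif. Windows reaching from 250 bases before to 50 bases after the start of transcription were held for 24 of the 30 genes, as 30 windows (RefSeq, GRCm38.p6). No window was held for Fdps, Fdft1, Sqle, Stard4, Scd1 and Scd2, so these were not searched. The sequences of a pair of promoters are printed. Hmgcs1 stands for the synthesis genes, and of the role representatives with a window it alone held the sterol regulatory motif. Insig1 had the largest step from number 3 to the next library in the controls. Insig1 was chosen for printing after its values had been seen. Capitals mark TCACCCCAC in Hmgcs1, a match to the sterol regulatory motif TCACNCCAC, and the E-box CACGTG in Insig1. Each is written in the direction of its gene, on the plus strand at chr13:119690101-119690400 for Hmgcs1 and at chr5:28071162-28071461 for Insig1.
Hmgcs1: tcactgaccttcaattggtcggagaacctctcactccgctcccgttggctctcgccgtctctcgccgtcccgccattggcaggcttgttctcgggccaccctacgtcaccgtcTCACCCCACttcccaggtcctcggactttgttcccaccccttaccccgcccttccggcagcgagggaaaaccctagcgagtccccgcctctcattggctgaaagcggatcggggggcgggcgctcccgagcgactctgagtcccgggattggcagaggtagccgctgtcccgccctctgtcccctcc
Insig1: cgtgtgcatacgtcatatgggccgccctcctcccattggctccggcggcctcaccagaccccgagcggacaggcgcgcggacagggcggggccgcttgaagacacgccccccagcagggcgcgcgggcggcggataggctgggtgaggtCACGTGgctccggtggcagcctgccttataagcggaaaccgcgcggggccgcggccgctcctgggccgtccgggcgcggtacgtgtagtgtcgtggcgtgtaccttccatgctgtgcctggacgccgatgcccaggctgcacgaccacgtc

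Searched on both strands, TCACNCCAC was found in 1 of the 30 windows of these genes (3.33%), against 1.24% of all 32851 promoter windows. Its first base in Hmgcs1 lay at -137 from the start of transcription. CACGTG was found in 6 windows (20%), against 7.15% of all windows, and in Insig1 it began at -101. The other windows with CACGTG belonged to Hsd17b7, Sc5d, Dhcr7 and Scap. The 2 windows of Scap overlap and hold the same match, so 5 of the 24 genes held the motif. CCAAT, the letters bound by NF-Y, was found in 21 windows (70%), against 37.4% of all, and the GC box GGGCGG, bound by Sp1, in 22 windows (73.3%), against 35.7%. These matches describe letters in a window and are not evidence of binding.

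None of the 30 genes passed the threshold of an adjusted p of 0.05 for less Cldn7. Over both hairpins together, edgeR's quasi-likelihood test called 0 of 30, while it called 304 of all 17025 genes, which is 1.79%. It called 0 of 30 for hairpin 1, against 124 of all genes (0.728%), and 0 of 30 for hairpin 2, against 981 of all genes (5.76%). The difference of hairpin 2 from hairpin 1 was called in 0 of 30, against 585 of all genes (3.44%). At an unadjusted p under 0.05 there were 2, 3, 3 and 2 of the 30 genes in these contrasts, where 17.2%, 12.8%, 22.6% and 20.1% of all genes lay under it. DESeq2 on the same counts called 1 gene in each contrast, which was Acly over both hairpins and for hairpin 1, Sc5d for hairpin 2, and Scd1 between the hairpins. Of all genes to which it gave an adjusted p, DESeq2 called 8.07% over both hairpins, 4.22% for hairpin 1, 12.4% for hairpin 2 and 9.76% between the hairpins.

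The estimates were small. Their median was -0.02 on the log2 scale for hairpin 1 (range -0.24 to 0.33), where the median of all genes was -0.002. It was -0.14 for hairpin 2 (range -0.50 to 0.24), where the median of all genes was 0.004. Both medians share the same controls. Hairpin 2 minus hairpin 1 had a median of -0.15 (range -0.42 to 0.19), where the median of all genes was 0.008. As the plot of estimates shows, the 95% intervals of most genes reached more than 0.2 to either side of the estimate. With 4 libraries of such spread, changes of that size could go uncalled. Larger ones could too, since the calls rest on adjusted p. With hairpin 2, Stard4 at -0.50 and Sc5d at -0.39 were not called (edgeR adjusted p = 0.146 and 0.0644).

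**Figure D1:**
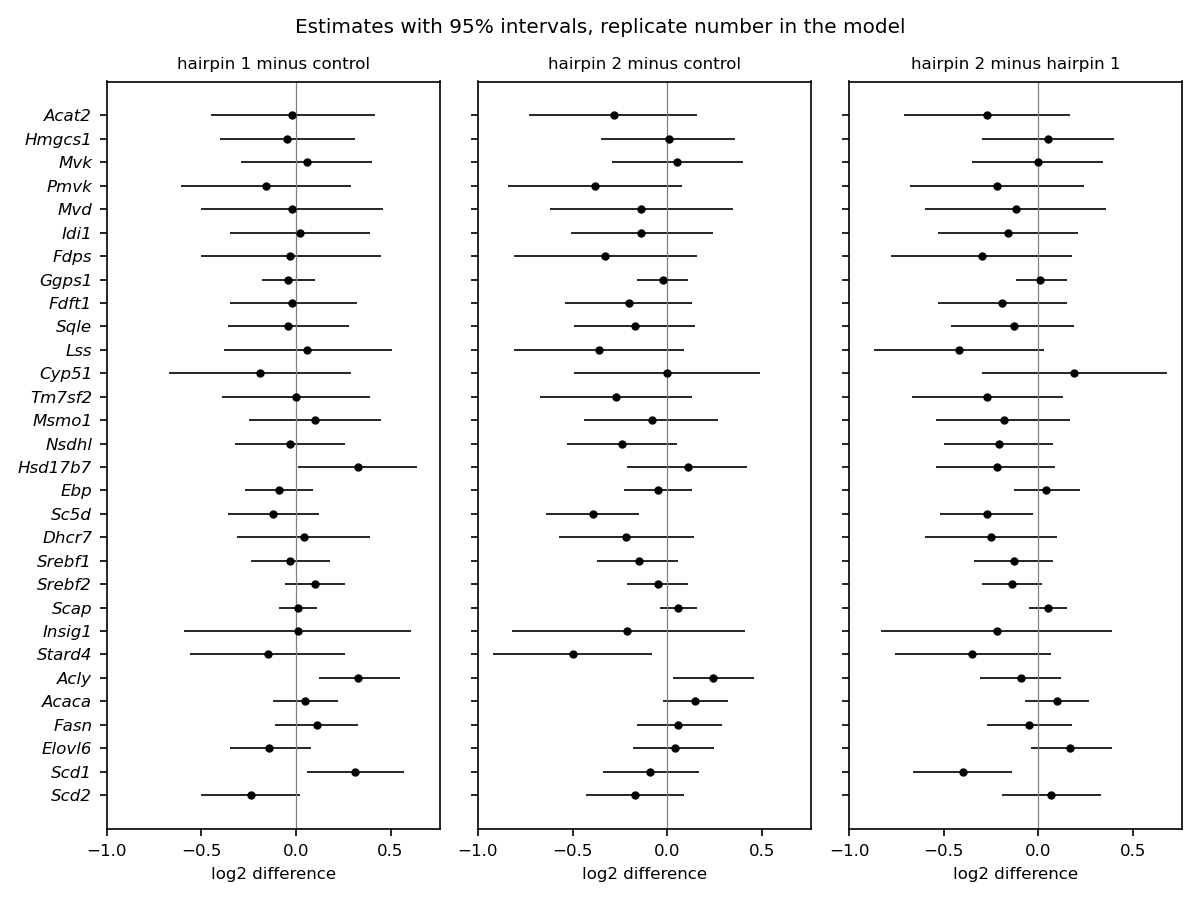
Each point is the edgeR estimate of the log2 difference for a gene, with its 95% interval, for hairpin 1 minus control (left), hairpin 2 minus control (middle) and hairpin 2 minus hairpin 1 (right), from 4 libraries per group. The estimates lie between -0.50 and 0.33, and no gene passed an adjusted p of 0.05 in any panel; Sc5d with hairpin 2 (0.0644) and Scd1 between the hairpins (0.0923) come nearest.

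The 30 genes differed between libraries by replicate number. The joint test of differences between the 4 numbers called 30 of 30 genes (edgeR adjusted p 1.66e-06 to 0.00600), in a setting where it called 76.3% of all genes tested, so the count itself is near the background. Most of the genes shared a direction. In the hairpin 1 libraries 23 of 30 genes had their highest value in number 3, where 30.1% of all genes did. In the hairpin 2 libraries 16 did, where 25.2% of all genes did, and in the controls 23 did, where 31.8% of all genes did. The genes were the same 23 in the hairpin 1 libraries and the controls, and 15 of them were also highest in number 3 with hairpin 2. Number 4 was the lowest library for 23, 22 and 21 genes in hairpin 1, hairpin 2 and control, where it was for 27.6%, 28.7% and 29.0% of all genes. Without replicate 3 of every group, the joint test called 24 of the 30, all but Mvk, Hsd17b7, Srebf2, Insig1, Acly and Fasn, and 64.3% of all genes. Without replicate 4 it also called 24, all but Acat2, Ggps1, Fdft1, Msmo1, Stard4 and Acaca, and 55.1% of all genes.

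**Figure D2:**
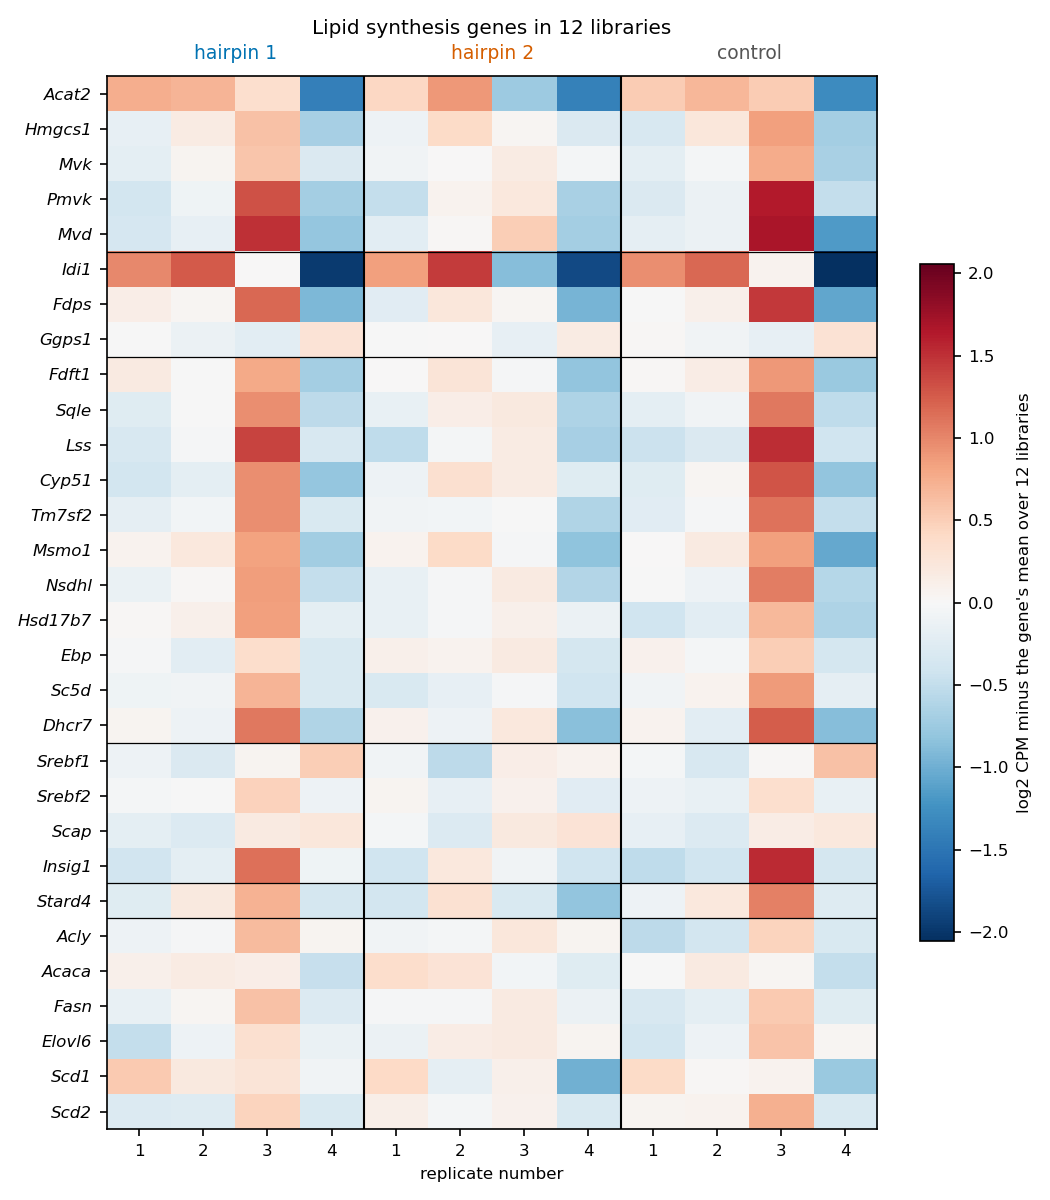
Rows are the 30 genes in the order of their roles and columns the 12 libraries, by group and replicate number; colour is the log2 CPM minus the mean of that gene over the 12 libraries. Red fills most of the column of number 3 in hairpin 1 and in the control and is paler or absent in hairpin 2. Blue fills most of the column of number 4. Acat2, Idi1, Ggps1, Srebf1, Scap, Acaca and Scd1 depart from that order. In number 4, Acly lies above its mean in both hairpins, and Elovl6 lies above its mean in hairpin 2 and the control.

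The pathway begins with acetyl-CoA. Hmgcs1 (NCBI Gene 208715, chr13:119690379-119708260, plus strand) makes HMG-CoA, the substrate from which mevalonate is formed. It had 79.3, 100.0, 136.4 and 55.7 CPM in libraries 1 to 4 of hairpin 1, and 82.8, 117.5, 92.1 and 72.8 CPM in those of hairpin 2, against 71.3, 105.5, 159.9 and 55.1 CPM in the controls. The groups overlapped throughout, with number 3 highest in hairpin 1 and control but second to number 2 in hairpin 2. The estimate was -0.05 (SE 0.16, edgeR adjusted p = 0.945) for hairpin 1 and 0.01 (SE 0.16, edgeR adjusted p = 0.989) for hairpin 2.

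The next enzymes consume mevalonate, and each had its highest value in number 3 in every group. Pmvk, which adds the second phosphate, averaged 36.6 ± 26.3 CPM with hairpin 1 and 27.1 ± 7.94 with hairpin 2, against 42.3 ± 34.9 in the controls (SD, n = 4 each). Mvd, the decarboxylase that yields isopentenyl diphosphate, reached 46.5 CPM in number 3 of hairpin 1 and 23.3 CPM in that of hairpin 2, against 52.3 CPM in that of the controls. The corresponding values for number 4 were 9.41, 10.1 and 7.28 CPM. Mvk, the mevalonate kinase, showed the same order with less spread, at 12.1 to 22.0 CPM with hairpin 1 and 14.1 to 16.7 CPM with hairpin 2, against 9.33 to 25.2 CPM in the controls. Acat2, which joins acetyl-CoA into acetoacetyl-CoA, differed from them. It was highest in number 1 or 2 and lowest in number 4 in all groups, at 15.8 to 70.4 CPM with hairpin 1 and 15.9 to 77.8 CPM with hairpin 2, against 17.0 to 67.0 CPM in the controls. Of its exon sequence, 40.6% of 75-base windows also occur elsewhere among annotated exons, chiefly in Acat3, so its counts are uncertain.

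Isoprenoid units are then rearranged and joined. Fdps, the farnesyl diphosphate synthase, was highest in number 3 with hairpin 1 at 110.0 CPM and in the controls at 133.1 CPM, while number 3 of hairpin 2 had 49.8 CPM, under its number 2 at 57.1 CPM. Idi1, the isomerase, ran from 7.75 to 73.0 CPM with hairpin 1 and from 8.36 to 82.3 CPM with hairpin 2, against 7.30 to 68.9 CPM in the controls. It was highest in number 2 and lowest in number 4 everywhere, and 20.6% of its exon windows are shared with pseudogenes. Ggps1, which makes the geranylgeranyl donor for protein prenylation and not for sterols, hardly moved: 20.0 to 28.1 CPM with hairpin 1 and 20.6 to 26.0 CPM with hairpin 2, against 20.6 to 28.6 CPM in the controls, lowest in number 3 and highest in number 4. Fdps overlaps the coding gene Gm43738 and Ggps1 overlaps Arid4b, and the strand setting of the counting is not known.

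The 11 enzymes from squalene to cholesterol were the most uniform. All 11 were highest in number 3 with hairpin 1 and in the controls, and 8 with hairpin 2, where Fdft1, Cyp51 and Msmo1 were highest in number 2. Sqle (NCBI Gene 20775, chr15:59315077-59331192, plus strand), the squalene epoxidase and a rate-limiting step of the branch, had 85.1, 100.0, 195.5 and 69.6 CPM in libraries 1 to 4 of hairpin 1. It had 90.7, 111.0, 116.6 and 64.9 CPM with hairpin 2, against 88.0, 95.7, 213.5 and 70.3 CPM in the controls. The groups stayed within 85.1 to 90.7 CPM at number 1, 95.7 to 111.0 CPM at number 2 and 64.9 to 70.3 CPM at number 4, whereas in number 3 the hairpin 2 library had 0.546 times the control and the hairpin 1 library 0.916 times. The estimate for hairpin 2 minus control was -0.17 (SE 0.15, edgeR adjusted p = 0.535).

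Lss, which closes squalene epoxide into lanosterol, showed a wide step at number 3. It had 31.6, 39.1, 104.3 and 31.8 CPM with hairpin 1 and 27.7, 38.5, 44.5 and 24.7 CPM with hairpin 2, against 29.4, 32.2, 114.3 and 30.1 CPM in the controls. Number 3 was 2.67 times the next library in hairpin 1 and 3.54 times in the controls, but 1.16 times in hairpin 2. Lss came among the 3 genes of smallest p between the hairpins, with hairpin 2 minus hairpin 1 at -0.42 (SE 0.20, edgeR adjusted p = 0.282).

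Sc5d (NCBI Gene 235293, chr9:42251595-42264256, minus strand), the sterol desaturase near the end of the route, was lower with the hairpin in 8 of 8 pairs. It was the only such gene of the 30, where 4.31% of all genes were lower in 8 of 8 pairs, and none of the 30 was higher in 8 of 8, where 3.69% of all genes were. Its values were 45.4, 46.3, 78.5 and 39.0 CPM with hairpin 1 and 39.2, 43.3, 47.8 and 36.5 CPM with hairpin 2, against 46.1, 50.9, 89.2 and 42.5 CPM in the controls. The groups overlapped when the numbers are set aside. The estimate was -0.12 (SE 0.11, edgeR adjusted p = 0.706) for hairpin 1 and -0.39 (SE 0.11, edgeR adjusted p = 0.0644) for hairpin 2. The call for hairpin 2 was made by DESeq2 (adjusted p = 0.0133), without the filter on low counts (edgeR adjusted p = 0.0441) and without hairpin 2 replicate 3, where the estimate was -0.24 (edgeR adjusted p = 0.0354). Over its 25 alternatives the adjusted p ran from 0.0133 to 1.00.

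Hsd17b7, a ketoreductase in the removal of the methyl groups at carbon 4, leaned the other way. It had 23.9, 25.1, 41.9 and 20.5 CPM with hairpin 1 and 21.2, 23.0, 25.3 and 21.7 CPM with hairpin 2, against 17.7, 20.2, 37.4 and 15.1 CPM in the controls. It was higher with the hairpin in 7 of 8 pairs, which share 4 controls, the exception being number 3 of hairpin 2. Acly and Scap were also higher in 7 of 8, and Ggps1, Stard4 and Scd2 lower in 7 of 8, so that each direction held 3 of the 30 genes, where 7.86% of all genes were higher and 7.45% lower in 7 of 8. The estimate for hairpin 1 was 0.33 (SE 0.14, edgeR adjusted p = 0.373). With only the compared groups in the fit it was 0.35 (edgeR adjusted p = 0.0451), and without hairpin 2 replicate 3 the estimate over both hairpins was 0.31 (edgeR adjusted p = 0.0399).

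The remaining 7 enzymes of the branch had no call in any contrast of the full data. Fdft1, the squalene synthase, lay at 26.8 to 75.3 CPM with hairpin 1 and 24.8 to 52.5 CPM with hairpin 2, against 25.7 to 81.2 CPM in the controls. Msmo1, the oxidase of the methyl groups at carbon 4, lay at 23.0 to 67.2 CPM with hairpin 1 and 21.2 to 49.5 CPM with hairpin 2, against 18.3 to 67.5 CPM in the controls. Nsdhl, the decarboxylase that works with Msmo1, lay at 31.6 to 80.7 CPM with hairpin 1 and 29.1 to 50.2 CPM with hairpin 2, against 29.6 to 92.4 CPM in the controls. For each of these 3 genes the hairpin 2 libraries thus spanned less than the other groups. Tm7sf2, a sterol reductase, had 33.6 CPM in number 3 of hairpin 1 and 17.2 CPM in that of hairpin 2, against 37.6 CPM in that of the controls. Dhcr7, the last enzyme of a main route, spanned 44.0 to 142.3 CPM with hairpin 1 and 37.2 to 78.4 CPM with hairpin 2, against 36.7 to 158.8 CPM in the controls. Cyp51, the lanosterol demethylase, had 139.6 CPM in number 3 of hairpin 1 and 81.4 CPM in that of hairpin 2, against 176.5 CPM in that of the controls. Between the hairpins Cyp51 was estimated at 0.19 (SE 0.22, edgeR adjusted p = 0.676), but at 0.48 without hairpin 2 replicate 3 (edgeR adjusted p = 0.0139) and at 0.45 without replicate 3 of every group (edgeR adjusted p = 0.0396). Ebp, the sterol isomerase, lay at 36.1 to 57.8 CPM with hairpin 1 and 34.8 to 50.8 CPM with hairpin 2, against 34.7 to 63.9 CPM in the controls. Fdft1 overlaps Ctsb, Cyp51 overlaps Akap9 and Tm7sf2 overlaps Vps51, and reads in these overlaps cannot be assigned without strand.

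Among the regulators Insig1 (NCBI Gene 231070, chr5:28071363-28078662, plus strand) followed the enzymes. It had 40.5, 46.2, 116.9 and 50.1 CPM with hairpin 1 and 39.9, 61.9, 50.4 and 40.0 CPM with hairpin 2, against 37.2, 40.3, 154.5 and 41.3 CPM in the controls. In number 3 the control was 3.74 times its next library and hairpin 1 was 2.33 times, while hairpin 2 was 0.813 times. The estimate for hairpin 2 minus control was -0.21 with a 95% interval of -0.82 to 0.41 (edgeR adjusted p = 0.704), the widest interval of the 30 genes. That estimate was 0.37 in replicates 1 and 2 alone and -0.81 in replicates 3 and 4 alone, without a call in either.

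Srebf2, which encodes SREBP-2, had 188.0, 192.6, 267.5 and 180.8 CPM with hairpin 1 and 201.6, 172.7, 205.8 and 164.6 CPM with hairpin 2, against 180.4, 173.6, 245.8 and 174.9 CPM in the controls. Number 3 was highest in every group by a modest margin. Srebf1, which encodes SREBP-1, did not share that order. It had 1371, 1198, 1528 and 2089 CPM with hairpin 1 and 1406, 1020, 1622 and 1558 CPM with hairpin 2, against 1439, 1172, 1498 and 2229 CPM in the controls. Number 4 was highest in hairpin 1 and control and number 2 lowest in all groups; Srebf1 overlaps the coding gene Rai1. Scap, the escort, lay between 107.1 and 153.4 CPM with hairpin 1 and between 107.3 and 157.4 CPM with hairpin 2, against 106.7 to 150.7 CPM in the controls, highest in number 4 everywhere. Estimates against the control were -0.15 for Srebf1 with hairpin 2 (SE 0.10, edgeR adjusted p = 0.376) and 0.10 for Srebf2 with hairpin 1 (SE 0.07, edgeR adjusted p = 0.644).

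Stard4 carries cholesterol between membranes and is a target of SREBP-2. It had 14.4, 19.8, 28.4 and 13.4 CPM with hairpin 1 and 13.3, 21.3, 13.9 and 9.78 CPM with hairpin 2, against 16.0, 20.0, 35.2 and 14.3 CPM in the controls. The hairpin 2 library was lower in numbers 1, 3 and 4 and slightly higher in number 2. The estimate for hairpin 2 was -0.50 (SE 0.19, edgeR adjusted p = 0.146), and without hairpin 2 replicate 2 it was -0.69 (edgeR adjusted p = 0.0497).

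**Figure D3:**
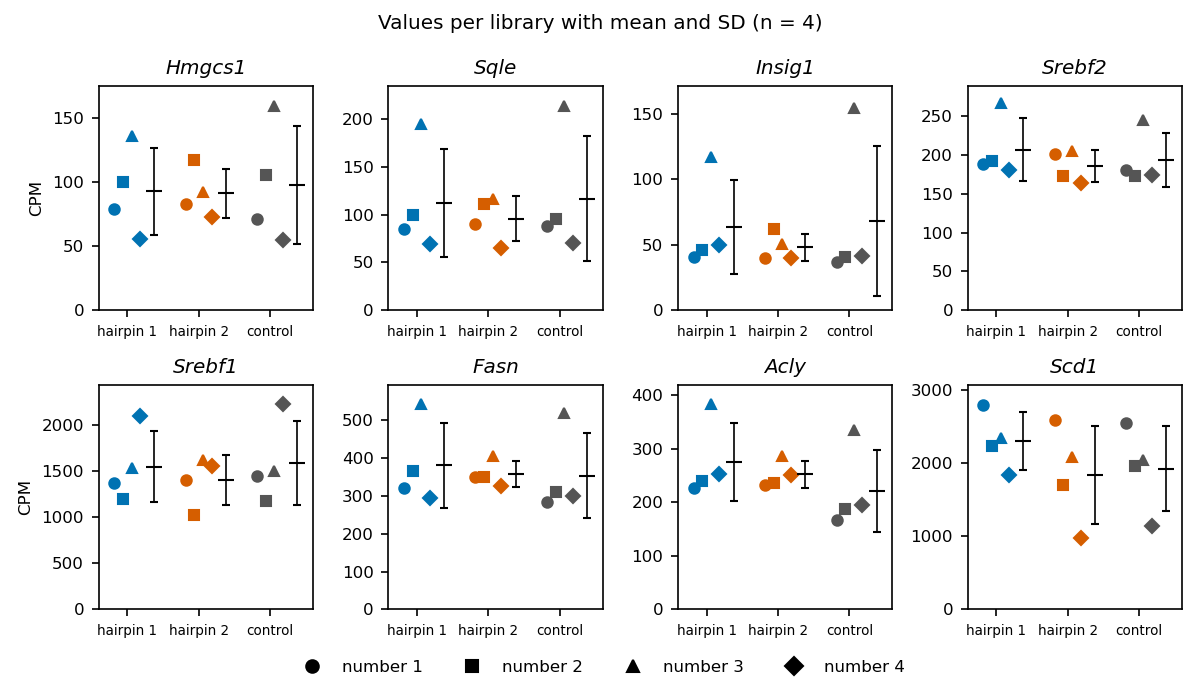
CPM of 8 genes in each library, by group, with the replicate number as the symbol and the mean and SD of the 4 libraries as bars to the right. Triangles (number 3) stand far above the rest for Hmgcs1, Sqle and Insig1 in hairpin 1 and control but not in hairpin 2, Srebf1 is highest in number 4 of hairpin 1 and control, and Acly lies lower in the controls than in either hairpin at numbers 1, 2 and 4.

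Fatty acid synthesis starts when citrate is cleaved to cytosolic acetyl-CoA by ATP citrate lyase, the product of Acly (NCBI Gene 104112, chr11:100476353-100528000, minus strand). Acly had 226.9, 239.3, 383.3 and 253.0 CPM with hairpin 1 and 232.6, 237.1, 286.9 and 252.1 CPM with hairpin 2, against 167.5, 187.4, 334.9 and 195.6 CPM in the controls. It was higher with the hairpin in 7 of 8 pairs, all except number 3 of hairpin 2. The estimate was 0.33 (SE 0.10, edgeR adjusted p = 0.164) for hairpin 1, 0.24 (SE 0.10, edgeR adjusted p = 0.172) for hairpin 2 and 0.29 (SE 0.08, edgeR adjusted p = 0.118) over both, where it had the smallest p of the 30 genes.

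Whether Acly was called depended on the libraries and on the test. Without hairpin 2 replicate 3 the estimates were 0.34 for hairpin 1, 0.37 for hairpin 2 and 0.35 over both (edgeR adjusted p = 0.0148, 0.00843 and 0.00575), and without replicate 3 of every group they were 0.39 in each contrast (edgeR adjusted p = 0.0266, 0.0114 and 0.0147). For hairpin 1 it was also called with the compared groups alone (0.35, edgeR adjusted p = 0.0212). DESeq2 called it for hairpin 1 and over both (adjusted p = 0.0339 and 0.0244). Over both hairpins the adjusted p of its 24 alternatives ran from 0.00575 to 1.00, with estimates from 0.20 to 0.40.

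The enzymes that follow lengthen the chain. Fasn, the fatty acid synthase, had 321.1, 365.7, 543.5 and 293.1 CPM with hairpin 1 and 350.0, 349.2, 404.9 and 326.9 CPM with hairpin 2, against 283.7, 310.9, 519.9 and 298.6 CPM in the controls. Number 3 was highest in each group, and the estimates were 0.11 (SE 0.10, edgeR adjusted p = 0.707) for hairpin 1 and 0.06 (SE 0.10, edgeR adjusted p = 0.751) for hairpin 2. Acaca, the acetyl-CoA carboxylase that supplies malonyl-CoA, lay at 51.6 to 80.5 CPM with hairpin 1 and 60.0 to 91.5 CPM with hairpin 2, against 50.7 to 81.5 CPM in the controls. It was called for hairpin 2 only without hairpin 2 replicate 3 (0.24, edgeR adjusted p = 0.0475), and 47.4% of its exon windows also occur in Gm5182. Elovl6, which elongates palmitate, lay at 67.0 to 118.0 CPM with hairpin 1 and 86.5 to 106.4 CPM with hairpin 2, against 72.2 to 140.9 CPM in the controls. Its difference of hairpin 2 from hairpin 1 was 0.17 (SE 0.10, edgeR adjusted p = 0.362), and 0.29 without hairpin 2 replicate 3 (edgeR adjusted p = 0.0448).

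Stearoyl-CoA desaturases place the first double bond. Scd1 had 2801, 2237, 2341 and 1843 CPM with hairpin 1 and 2584, 1705, 2078 and 980.0 CPM with hairpin 2, against 2543, 1960, 2040 and 1140 CPM in the controls. It was highest in number 1 and lowest in number 4 in each group, unlike the sterol enzymes. All 4 hairpin 1 libraries were above the control of their number, with an estimate of 0.31 (SE 0.12, edgeR adjusted p = 0.292). All 4 hairpin 2 libraries were below the hairpin 1 library of their number, with an estimate of -0.40 (SE 0.12, edgeR adjusted p = 0.0923). DESeq2 called that difference between the hairpins (adjusted p = 0.00970).

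Scd2, an isoform best known from the brain, was ordered like the sterol enzymes in hairpin 1 and control. It had 799.0, 804.7, 1332 and 785.1 CPM with hairpin 1 and 1051, 948.5, 1028 and 778.8 CPM with hairpin 2, against 1010, 1025, 1615 and 785.4 CPM in the controls. The estimates were -0.24 (SE 0.12, edgeR adjusted p = 0.442) for hairpin 1 and -0.17 (SE 0.12, edgeR adjusted p = 0.431) for hairpin 2. Scd1 and Scd2 share 3.15% and 1.76% of their exon windows with relatives of the family. Of those, Scd4 had 23.7 to 33.5 CPM in libraries 1 and 2 of the 3 groups and 0.430 to 0.808 CPM in libraries 3 and 4. Scd3 was split in the same way, at 32.8 to 40.9 CPM in libraries 1 and 2 and 7.89 to 9.29 CPM in libraries 3 and 4. How reads were assigned among these relatives was not tested.

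The pairs of libraries show where the hairpins parted. In pairs 1 to 4 the median log2 difference of the 30 genes was 0.01, 0.02, -0.15 and 0.05 for hairpin 1 minus control. For hairpin 2 minus control it was 0.03, 0.13, -0.86 and -0.00, so that a single pair carried the lower values. In that pair 27 of 30 genes were lower with hairpin 2 and 10 were lower by more than 2-fold, where 3.95% of all genes were, and the median of all genes was -0.010. The differences ran from -1.62 for Insig1 to 0.12 for Srebf1. The hairpin 2 library numbered 3 was also below the hairpin 1 library of its number, with a median of -0.72. This rests on 1 library, so it has no replicate and no test. In the fit, the median estimate for hairpin 2 was 0.07 in replicates 1 and 2 alone and -0.30 in replicates 3 and 4 alone.

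**Figure D4:**
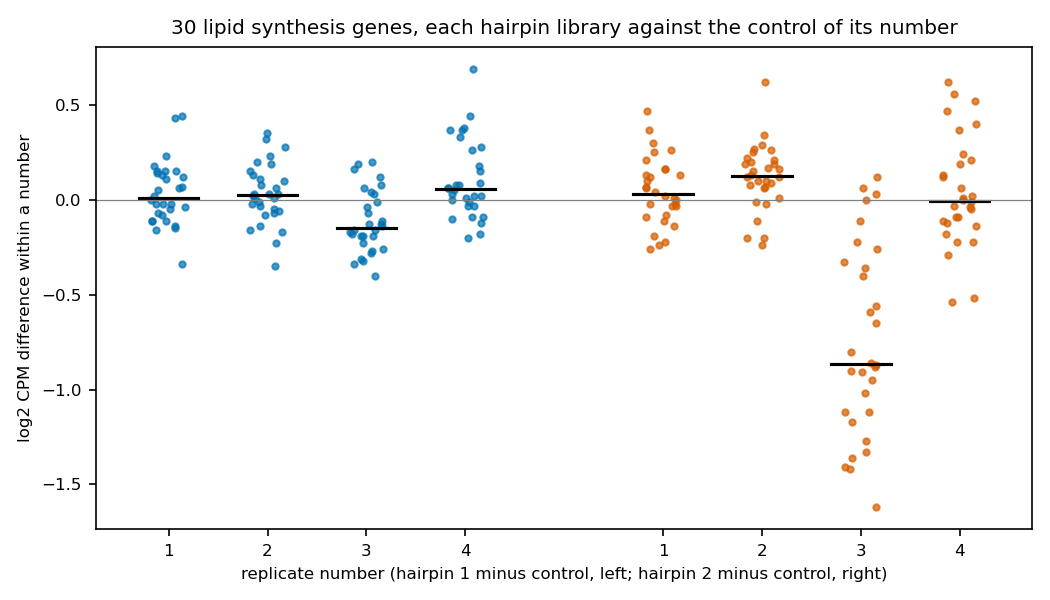
Each point is a gene, as the log2 CPM difference between a hairpin library and the control library with the same replicate number, for hairpin 1 (left) and hairpin 2 (right); black bars are medians of the 30 genes. Medians lie between -0.15 and 0.13 except in pair 3 of hairpin 2, where the median is -0.86 and the lowest gene, Insig1, is at -1.62.

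The ratio of hairpin 2 to control in number 3 differed between genes. It was lowest for Insig1 at 0.326, Fdps at 0.374, Pmvk at 0.376 and Lss at 0.389. Among the 11 enzymes from squalene to cholesterol it ran from 0.389 for Lss to 0.796 for Ebp. Among the 6 fatty acid genes it was 0.637 for Scd2, 0.756 for Elovl6, 0.779 for Fasn, 0.856 for Acly, 0.928 for Acaca and 1.02 for Scd1, so the ranges of the groups of genes overlapped. It was 1.08 for Srebf1, 1.04 for Scap and 0.998 for Ggps1. These 3 and Scd1 were not highest in number 3 of the controls, but neither were Acaca, Acat2 and Idi1, and the last pair had ratios of 0.415 and 0.519. The same ratio for hairpin 1 was 0.756 for Insig1, 0.826 for Fdps and 0.912 for Lss.

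Markers of other cells moved with the numbers as well. The 8 fibroblast markers summed to 244.5 to 4749 CPM with hairpin 1 and 499.1 to 8476 CPM with hairpin 2, against 216.4 to 3879 CPM in the controls. Their sum was lowest in number 3 and highest in number 4 of every group, the reverse of the sterol enzymes. The 7 milk protein markers of alveolar cells had their highest sum in number 3, at 3962 CPM with hairpin 1 and 2387 CPM with hairpin 2, against 5363 CPM in the controls. Most of that sum was Csn3, with 3410 CPM in hairpin 1 and 1886 CPM in hairpin 2, against 4518 CPM in the controls. Of the 5 tested milk markers, 2 were highest in number 3 with hairpin 1 and 2 with hairpin 2, against 3 in the controls. Csn1s1 was lowest in number 3 of every group. Csn2, Wap and Glycam1 of that list were under 1 CPM in every library. Against the control, Csn1s1 of that list rose with hairpin 1 (1.56, SE 0.18, edgeR adjusted p = 0.00819) and hairpin 2 (1.13, SE 0.18, edgeR adjusted p = 0.00863). The other tested milk markers were not called and did not share a direction. With hairpin 1 and hairpin 2, Csn3 stood at -0.04 and -0.22 and Lalba at -0.60 and -0.21. In the same order Csn1s2a stood at 1.37 and 0.16 and Wap at -0.43 and 0.84. Of the fibroblast markers Dcn rose with hairpin 2 (1.02, SE 0.17, edgeR adjusted p = 0.0113). The part of these cells in the values of the 30 genes was not tested.

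Other markers set the tissue. The 6 epithelial markers, all above 1 CPM, summed to 2545 to 4729 CPM with hairpin 1 and 2474 to 4426 CPM with hairpin 2, against 2673 to 4805 CPM in the controls, with number 4 lowest. Epcam of that list fell over both hairpins (-0.25, SE 0.05, edgeR adjusted p = 0.0485) and with hairpin 2 (-0.34, SE 0.06, edgeR adjusted p = 0.0151). The other epithelial markers were not called. Krt19 leaned the other way, at 0.67 over both hairpins and 1.02 with hairpin 2 (edgeR adjusted p = 0.207 and 0.0692). Krt8, Krt18, Cdh1 and Krt7 lay between -0.07 and 0.08 over both hairpins. Adipocytes, another cell type of the mammary gland that is rich in these enzymes, left little trace. Their 10 markers summed to 14.0 to 17.1 CPM with hairpin 1 and 14.6 to 21.2 CPM with hairpin 2, against 16.0 to 18.1 CPM in the controls, and Adipoq, Plin1, Lep, Cfd and Retn were under 1 CPM in every library. The 8 macrophage markers summed to at most 24.7 CPM and the 6 endothelial markers to at most 6.45 CPM.

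Per kilobase of exon the levels spanned a wide scale. Scd1 was highest at a mean of 413.1 CPM per kilobase over the 12 libraries (range 200.3 to 572.5), followed by Srebf1 at 268.2 (range 181.0 to 395.7) and Scd2 at 182.4 (range 142.5 to 295.5). Acly at 47.3 and Fasn at 33.2 came next, and Stard4 was lowest at 3.28. Scd1 was thus 126.0 times Stard4. Of 29 neighbours in that order, only Scd2 and Acly had ranges that did not overlap. With the length of the longest transcript in place of all exons, 23 genes changed place, by at most 8 places.

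**Figure D5:**
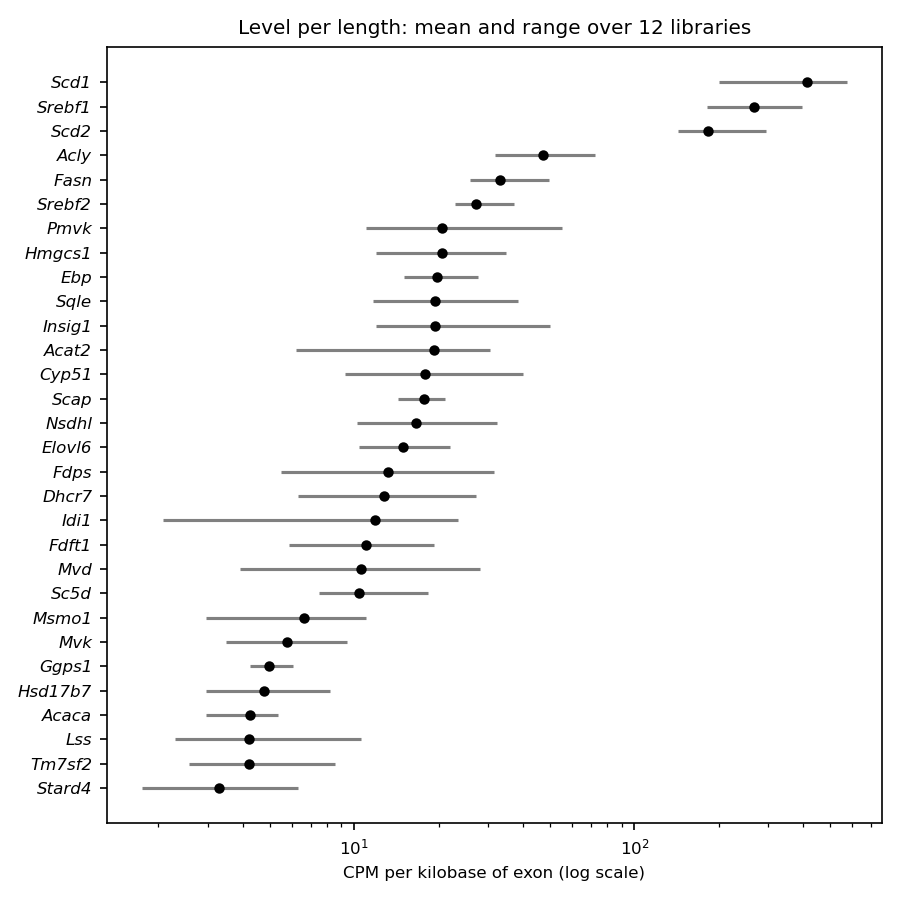
Points are the mean CPM per kilobase of exon over the 12 libraries on a log axis and lines the lowest to highest library, for the 30 genes in order of the mean. The desaturases Scd1 and Scd2 and Srebf1 stand apart from the rest, and ranges of neighbours overlap everywhere else.

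Genes of the wider pathway were read from 6 further lists. Among 8 tested genes of sterol synthesis outside the 30, none passed against the control, and Cyb5a, which passes electrons to sterol oxidases, was lower with hairpin 2 than with hairpin 1 (-0.37, SE 0.07, edgeR adjusted p = 0.0239). Their smallest p over both hairpins was that of Cyb5r3 (-0.09, SE 0.06, edgeR adjusted p = 0.444). Of all genes, 1.79% were called over both hairpins, 0.728% for hairpin 1, 5.76% for hairpin 2 and 3.44% between the hairpins. None of the 10 genes of isoprenoid branches passed in any contrast, and the smallest p over both hairpins was that of Nus1 (-0.10, SE 0.05, edgeR adjusted p = 0.313). Of these 10 genes, 8 were highest in number 3 with hairpin 1 and 8 with hairpin 2, against 9 in the controls. The high values in number 3 were thus not particular to the sterol enzymes.

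Of 10 genes of the LXR response and sterol efflux, 1 rose in each contrast against the control and none fell, where 1.79%, 0.728% and 5.76% of all genes were called over both hairpins, for hairpin 1 and for hairpin 2. It was Apoe, the lipid-carrying apolipoprotein E, which had 60.1, 399.0, 141.8 and 214.5 CPM with hairpin 1 and 56.2, 453.2, 174.0 and 159.6 CPM with hairpin 2, against 39.1, 220.1, 99.3 and 63.8 CPM in the controls. Apoe was higher than the control in each pair and rose by 0.93 over both hairpins (SE 0.15, edgeR adjusted p = 0.0193). Of the 10 genes, 5 were highest in number 4 in all groups, namely Abca1, Abcg1, Mylip, Nr1h3 and Ch25h. The others were highest in number 4 of no group. Lpcat3 was lowest there, as most synthesis enzymes were, with 89.4, 88.2 and 90.6 CPM in hairpin 1, hairpin 2 and control. The share of all genes highest in number 4 was not determined.

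The 14 tested genes of sterol uptake and transport held 1 that rose with each hairpin, and a different gene each time. Of all genes, 0.728% were called for hairpin 1 and 5.76% for hairpin 2. Npc1, the lysosomal cholesterol exporter, rose by 0.38 with hairpin 1 (SE 0.04, edgeR adjusted p = 0.00819) and stood at -0.17 with hairpin 2 (edgeR adjusted p = 0.0524). Lipa, the lysosomal acid lipase, rose by 0.73 with hairpin 2 (SE 0.11, edgeR adjusted p = 0.00732) and stood at -0.28 with hairpin 1 (edgeR adjusted p = 0.333). Tested directly, hairpin 2 minus hairpin 1 was -0.55 for Npc1 (SE 0.04, edgeR adjusted p = 0.000378) and 1.01 for Lipa (SE 0.11, edgeR adjusted p = 0.00173). In that contrast 3.44% of all genes were called.

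Of 11 genes that process SREBPs or turn over their partners, Pgrmc1, a membrane protein that binds INSIG-1, fell over both hairpins (-0.29, SE 0.05, edgeR adjusted p = 0.0200) and with hairpin 1 (-0.45, SE 0.06, edgeR adjusted p = 0.0104). It was higher with hairpin 2 than with hairpin 1 (0.31, SE 0.06, edgeR adjusted p = 0.0176). Mbtps1, the protease that makes the initial cut in SREBPs, fell with hairpin 2 (-0.20, SE 0.05, edgeR adjusted p = 0.0355). The other 9 were not called in any contrast. Of all genes, 1.79% were called over both hairpins, 0.728% for hairpin 1, 5.76% for hairpin 2 and 3.44% between the hairpins.

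Of 23 further genes of fatty acid synthesis, 1 fell over both hairpins, 0 passed for hairpin 1 and 3 fell with hairpin 2, where 1.79%, 0.728% and 5.76% of all genes were called in either direction. Acsl3, which activates fatty acids on the endoplasmic reticulum, fell over both (-0.29, SE 0.05, edgeR adjusted p = 0.0300) and with hairpin 2 (-0.27, SE 0.06, edgeR adjusted p = 0.0347). Me1, the malic enzyme that supplies NADPH, fell with hairpin 2 (-0.39, SE 0.08, edgeR adjusted p = 0.0242), as did Hacd2, a dehydratase of elongation (-0.24, SE 0.05, edgeR adjusted p = 0.0324). Between the hairpins, Elovl7 (0.26, SE 0.05, edgeR adjusted p = 0.0302) and Fads1 (0.23, SE 0.05, edgeR adjusted p = 0.0442) were higher with hairpin 2, and Me1 was lower (-0.39, SE 0.08, edgeR adjusted p = 0.0294). In that contrast 3.44% of all genes were called. Of the list, 16 genes were highest in number 3 with hairpin 1 and 14 with hairpin 2, against 16 in the controls.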

How the data were processed

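Gene expression was measured by RNA-seq of oligo-dT selected RNA in 12 libraries, 4 per group. The authors deposited raw read counts per gene in a single table, not normalized, identified by NCBI Gene number and symbol; every column was used. Per the submitters' processing notes, mm10, Trimmomatic 0.39, FastQC 0.74 and DESeq2 1.34.0 were used, in roles that are not stated. Which aligner, annotation and strand setting lie behind the counts is not given in the sources used here, so reads of genes that overlap or closely resemble each other may be misassigned.

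The counts were filtered with edgeR's filterByExpr (17025 of 25861 genes kept, 1 table row had no symbol), scaled by TMM and tested with edgeR 4.0.16's quasi-likelihood test over all 12 libraries, with the group and the replicate number in the model. Adjusted p-values are Benjamini-Hochberg values over all genes tested, with a threshold of 0.05. A hairpin was compared with the control, both hairpins with the control, and the hairpins with each other; a joint test compared the replicate numbers. CPM are TMM-scaled, and differences within pairs are of log2 CPM with a prior count of 2. Levels per kilobase used the union of exons in GENCODE M21 (GRCm38, the assembly called mm10), which also gave coordinates. Shared sequence was searched in 75-base windows of exons. Total counts were 34988358 to 76329473 per library, and the lowest count of a described gene in a library was 433. The edgeR model was tested on simulated counts. These held no differences between replicate numbers, so the simulation does not cover that part of the model.

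The replicate numbers pair the libraries: deviations from the group means correlated at 0.855 to 0.916 across groups between libraries that share a number and at -0.807 to 0.727 otherwise, and for 12 of 12 libraries the 2 closest carried their own number. It rests on the titles' numbers and on this check alone, as no label names an animal or day that libraries share. Within groups, the chi-square per degree of freedom between libraries was 54.3 to 608.4, so none is a duplicate.

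The alternatives were the model without the replicate number, DESeq2 size factors, upper quartile scaling, no filter, at least 1 CPM in 4 libraries, DESeq2 1.42.0's test, the compared groups alone, each library or replicate number left out, replicates 1 and 2 or 3 and 4 alone, and the longest transcript as the length. The 30 genes, the other lists and the markers were chosen with earlier results of these data known. Values in every library are given for genes past the threshold, for the 3 genes of smallest p in each hairpin contrast and for Hmgcs1, Sqle, Srebf1, Srebf2, Insig1, Fasn, Scd1 and Scd2, and ranges for the others; genes of the other lists are named when past the threshold or else by the smallest p over both hairpins, and the further names given among them were chosen after their values were seen.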

Additional observations from a re-analysis of the deposited data

Results flagged for a closer look

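For each gene and group of 4 libraries, the highest or lowest library was judged by Dixon's criterion at the 95% level. The criterion sets the gap from that library to its nearest neighbour against the range of all 4. Of 90 such sets, 16 held a library that stood apart, where independent sets would give about 1 in 20 by chance. The 90 sets are not independent, since the 30 genes were read in the same 12 libraries and most shared a direction. The share of all genes that this rule flags was not determined, so the count cannot be set against chance. Number 3 was the library in question in 7 sets of hairpin 1, 0 of hairpin 2 and 6 of the controls.

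High values in number 3 of hairpin 1 were those of Mvd (46.5 CPM), Lss (104.3 CPM), Tm7sf2 (33.6 CPM), Srebf2 (267.5 CPM), Insig1 (116.9 CPM), Acly (383.3 CPM) and Scd2 (1332 CPM). In number 3 of the controls they were those of Pmvk (94.5 CPM), Lss (114.3 CPM), Srebf2 (245.8 CPM), Insig1 (154.5 CPM), Acly (334.9 CPM) and Fasn (519.9 CPM). Number 4 stood apart as low for Acaca with hairpin 1 (51.6 CPM), for Tm7sf2 with hairpin 2 (11.3 CPM) and for Acat2 in the controls (17.0 CPM). Lss, Srebf2, Insig1 and Acly were set apart in number 3 of both hairpin 1 and the controls.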

How the results depend on the processing

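Over both hairpins the 304 calls of all genes became 1 with no replicate block, 1161 with DESeq2's test, 25 in replicates 1 and 2 alone and 5 in replicates 3 and 4 alone, and 26 to 554 when a library or a replicate number was left out. For hairpin 1 the 124 became 1, 607, 9 and 1 under the same alternatives, 390 with the compared groups alone, and 1 to 344 on leaving out. For hairpin 2 the 981 became 1, 1860, 82 and 327, 97 with the compared groups alone, and 185 to 1076 on leaving out. Between the hairpins the 585 became 1, 1436, 84 and 42, and 66 to 672 on leaving out. The lowest counts on leaving out came without replicate 1 (both hairpins, and between the hairpins), replicate 2 (hairpin 1) or replicate 4 (hairpin 2), and the highest without hairpin 2 replicate 3 (both hairpins, hairpin 1), hairpin 2 replicate 2 (hairpin 2) or control replicate 3 (between the hairpins). Differences between replicate numbers were called in 9055 to 13301 genes on leaving out, against 12992.

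Of the 30 genes, 0 passed for a hairpin with no replicate block in the model. That fit called only 1 of all genes in each contrast, so it cannot show whether the pairing mattered for the 30. On leaving out, 0 to 2 passed over both hairpins, 0 to 1 for hairpin 1, 0 to 3 for hairpin 2 and 0 to 2 between the hairpins; the upper ends came without hairpin 2 replicate 3. DESeq2 called 1 in each contrast, the compared groups alone gave 2 for hairpin 1, and no filter gave 1 for hairpin 2; the cause was not tested. Between replicate numbers, 24 to 30 passed on leaving out. DESeq2 size factors and upper quartile scaling changed no call among the 30. Uncalled estimates changed sign in 71 of 720 values over both hairpins, 82 of 750 for hairpin 1, 81 of 750 for hairpin 2 and 58 of 750 between the hairpins. The lowest count of these genes in a library was 433.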
